A study of Mus musculus with 22 samples.

Results

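A set of 10 genes known as typical of resting (homeostatic) microglia was followed across microglia and astrocytes sorted from the cortex of aged mice. They were Tmem119, Cx3cr1, Sall1, Siglech, Gpr34, Olfml3, Sparc, Fcrls, Selplg and Slc2a5. Every probe that the array's probe annotation gave to these 10 symbols was taken, 15 of the 33026 probes that name 1 gene, and the 10 genes stand among 22485. Where a gene had several probes, the one brightest on average over all 22 samples stood for it and is called its brightest probe. The mice were APPswe/PS1dE9 on the C57BL/6 strain (AD), a model of amyloid plaque formation in which the prion protein promoter drives both transgenes, and wild-type littermates (WT), all between 15 and 18 months old. Microglia had been sorted from dissociated, myelin-depleted cortex as living CD11b+ CD45+ O4- cells (7 AD and 7 WT samples), and astrocytes as GLT1+ CD11b- O4- cells (4 AD and 4 WT samples). The samples are described as biological replicates, and the labels used here do not say whether a sample pools animals. On each of the 11 arrays an AD and a WT sample of equal number were hybridised together in the 2 dye channels, and all values are log2 values of 1 channel.

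Microglia in the undisturbed adult brain keep a gene programme that separates them from other macrophages and that depends on signals from the tissue, transforming growth factor beta among them. Its products include receptors through which the cells sense neurons and lipids, surface glycoproteins, secreted matrix proteins and the transcription factor that maintains their identity. Around amyloid plaques, microglia are known to lower many of these genes while they raise genes of phagocytosis and lipid handling.

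RefSeq promoter sequence (assembly GRCm38.p6) was at hand for 7 of the 10 genes, in 9 windows of 250 bases before the start of transcription, because Sall1 has several listed starts. The windows were searched on both strands for letters that factors of microglial identity are known to bind, and no motif searched overlapped another in them. The Smad letters CAGACA, bound downstream of transforming growth factor beta, were in the windows of 4 of the 7 genes and in 17.1% of all 32851 promoter windows. The RUNX letters TGTGGT were in those of 3 genes and in 4614 of all 32851 windows. The windows of 5 genes held a Smad or a RUNX match, and these are shown 5′ to 3′ on the strand of the gene, with every matched motif in capitals, because both factors belong to pathways of microglial identity that were also measured.
Cx3cr1, chr9:120068297-120068546, minus strand: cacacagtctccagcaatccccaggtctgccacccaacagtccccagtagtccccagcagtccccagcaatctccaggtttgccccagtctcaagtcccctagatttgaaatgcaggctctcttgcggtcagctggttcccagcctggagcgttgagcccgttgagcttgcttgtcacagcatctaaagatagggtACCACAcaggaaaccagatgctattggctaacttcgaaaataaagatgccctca
Siglech, chr7:55767934-55768183, plus strand: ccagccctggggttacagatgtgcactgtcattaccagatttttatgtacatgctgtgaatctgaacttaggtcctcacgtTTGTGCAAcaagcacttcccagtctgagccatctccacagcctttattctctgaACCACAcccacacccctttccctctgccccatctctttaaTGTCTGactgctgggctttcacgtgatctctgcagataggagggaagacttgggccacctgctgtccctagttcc
Slc2a5, chr4:150119094-150119343, plus strand: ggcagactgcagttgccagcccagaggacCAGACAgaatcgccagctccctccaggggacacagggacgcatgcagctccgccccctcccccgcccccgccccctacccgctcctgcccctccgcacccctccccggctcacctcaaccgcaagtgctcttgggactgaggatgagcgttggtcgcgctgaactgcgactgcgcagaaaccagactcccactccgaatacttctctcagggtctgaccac
Sparc, chr11:55420081-55420330, minus strand: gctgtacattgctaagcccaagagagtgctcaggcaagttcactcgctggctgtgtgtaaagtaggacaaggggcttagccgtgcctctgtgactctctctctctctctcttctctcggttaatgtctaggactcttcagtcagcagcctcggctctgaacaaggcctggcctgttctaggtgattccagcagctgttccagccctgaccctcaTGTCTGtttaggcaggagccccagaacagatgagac
Fcrls, chr3:87263525-87263774, minus strand: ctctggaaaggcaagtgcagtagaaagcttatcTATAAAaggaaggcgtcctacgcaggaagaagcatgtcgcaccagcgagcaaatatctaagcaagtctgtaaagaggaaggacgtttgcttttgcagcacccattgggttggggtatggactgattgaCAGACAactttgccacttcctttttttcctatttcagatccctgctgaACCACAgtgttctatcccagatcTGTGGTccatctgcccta
The Smad match lay 36 to 31 bases before the start in Sparc, 75 to 70 in Siglech, 89 to 84 in Fcrls and 221 to 216 in Slc2a5. The capitals in Cx3cr1 are a RUNX match 54 to 49 bases before the start. Siglech also held a RUNX match and the C/EBP letters TTGCNNAA, which were in 9.56% of all windows, and Fcrls held 2 RUNX matches and a TATA box (TATAAA, 12.4% of all windows). The PU.1 letters GAGGAAGT (2.44% of all windows), the IRF letters GAANNGAA (17.2%), the MEF2 letters TAAAAATA (2.45%) and the AP-1 letters TGANTCA (6.75%) were in the windows of 0 of the 7 genes. These matches describe letters and were not tested against any level.

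The columns of the table had near identical medians, between 6.24 and 6.26, which would hide a shift common to all genes. Medians do not describe bright probes, and quantile normalization made most differences of the homeostatic genes in microglia smaller (values given below). The highest value was 17.89, and probes near it can understate a difference. Microglia arrays gave values for 32045 to 40771 of the 43020 probes and astrocyte arrays for 42427 to 42869. The WT microglia sample of replicate 3 stood apart in markers of other myeloid cells. The summed level of 11 macrophage and monocyte markers was 18.36 there, against 13.41 to 14.38 in the other 6 WT samples and 12.95 to 13.62 in the 7 AD samples. Results that lost their call without replicate 3 are named below.

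In WT animals the homeostatic genes marked the microglia samples. All 10 were lower in WT astrocytes than in WT microglia (limma with array as a random block, Benjamini-Hochberg adjusted p under 0.05), where 18.4% of 21966 genes were lower and 54.1% differed in either direction. The ranges of the 2 WT groups did not overlap for 9 of the 10 genes, against 14.1% of all genes. The median difference of the 10 was -8.69 log2 units, and that of all genes was 0.34. Because all astrocyte arrays lay on 1 slide that held no microglia, the slide cannot be told apart from the cell type.

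Tmem119, a transmembrane protein used to tell microglia from other macrophages, ranged from 15.10 to 16.12 in the 7 WT microglia samples and from 5.48 to 7.50 in the 4 WT astrocyte samples, a difference of -9.18 ± 0.39 (SE, adjusted p = 6.17e-14). The sialic acid-binding receptor gene Siglech was the exception among the 10. Its brightest probe ranged from 14.61 to 15.42 in WT microglia and from 14.12 to 15.07 in WT astrocytes, so that these groups overlapped, and it differed by -0.68 ± 0.20 (adjusted p = 0.00776, or 0.378 with slide as a random block). The dimmer Siglech probe ranged from 13.45 to 14.99 in WT microglia and from 4.25 to 6.76 in WT astrocytes, a difference of -9.25 ± 0.55. The probes of Siglech therefore disagree about astrocytes, and values of the gene in these samples are given for both.

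Sparc, which encodes a secreted matricellular protein that astrocytes and vessel cells also make, differed less between the cell types. Its brightest probe ranged from 17.24 to 17.61 in the 6 WT microglia samples with a value and from 15.75 to 16.15 in WT astrocytes (-1.54 ± 0.19), with 5 of the 6 microglia values within 0.5 of the top of the scale. The dimmer probe, away from the top, differed by -4.63 ± 0.19. Sall1, the zinc-finger transcription factor of microglial identity, ranged from 11.14 to 12.18 in WT microglia and from 8.90 to 9.84 in WT astrocytes (-2.33 ± 0.24). The other 6 genes differed by -8.20 (Olfml3) to -9.47 (Cx3cr1), and their WT astrocyte samples lay at 9.59 or below.

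In AD microglia the homeostatic programme was lower. Of the 10 genes, 8 fell (limma with array as a block, Benjamini-Hochberg adjusted p under 0.05), where 11.6% of 21966 genes fell and 20.0% changed in either direction, and 0 rose, where 8.44% did. The brightest probes of all 10 genes were lower in AD on every array that measured them, as were 13.9% of all genes. The groups did not overlap for 6 of the 10, against 2.18% of all genes. The median difference was -0.94, and that of all genes was -0.04. The differences of the 8 genes that fell ran from -0.58 (Olfml3) to -1.42 (Tmem119). In sorted bulk samples, fewer cells of a type and less RNA per cell cannot be told apart.

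**Figure D1:**
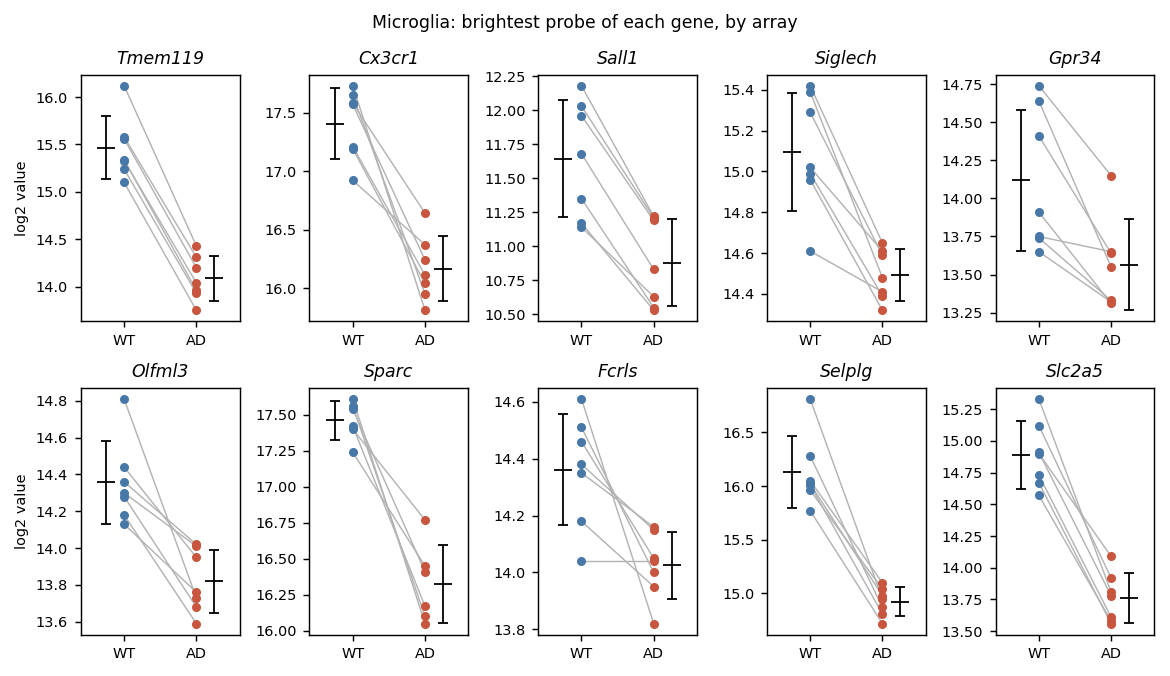
Log2 value of the brightest probe of each homeostatic gene in microglia samples (vertical axis, scaled per gene), WT in blue and AD in red, with lines joining the samples of 1 array and bars giving mean ± SD. The lines run downward for every gene, and the groups are separate for 6 genes, such as Tmem119 (WT 15.10 to 16.12, AD 13.75 to 14.43).

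The transcription factor gene Sall1 had its lowest, median and highest values at 11.14, 11.68 and 12.18 in WT and at 10.53, 10.83 and 11.22 in AD. The groups overlapped, because the WT samples of replicates 2 and 3 lay below the highest AD samples. The differences within arrays were even, from -0.51 to -0.95, and the fitted difference was -0.76 ± 0.09 (adjusted p = 0.000391). The call was lost without the array as a block (adjusted p = 0.0648).

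Tmem119 had the largest difference of the 10 genes. Its lowest, median and highest values were 15.10, 15.34 and 16.12 in WT and 13.75, 14.04 and 14.43 in AD. Every AD sample lay below every WT sample. Tmem119 fell by 1.42 ± 0.22 on the log2 scale, 2.67-fold (adjusted p = 0.00158), and its array differences ran from -1.27 to -1.69.

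Selplg encodes PSGL-1, the mucin-like ligand through which leukocytes bind selectins. It ran from 15.77 through a median of 16.02 to 16.81 in WT and from 14.72 through 14.95 to 15.10 in AD. The groups were separate, and the 7 AD samples lay close together (SD 0.13, against 0.34 in WT). The fall was 1.27 ± 0.20 on the log2 scale (adjusted p = 0.0019), and the dimmer probe of Selplg gave -1.0 ± 0.15 (adjusted p = 0.00154).

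Cx3cr1 is the receptor for fractalkine, the membrane-bound chemokine that neurons present to microglia. Its brightest probe ran from 16.92 through a median of 17.57 to 17.73 in WT and from 15.81 through 16.11 to 16.64 in AD. The groups did not overlap, though 4 of the 7 WT values were within 0.5 of the top of the scale. The difference was -1.25 ± 0.33 (adjusted p = 0.0247), and the dimmer probe, which had no value near the top, fell by 1.02 ± 0.20 (adjusted p = 0.00534). The array differences of Cx3cr1 were less even than those of Tmem119, from -0.55 to -1.93. Leaving out replicate 1, 5, 6 or 7 ended the call of the brightest probe (adjusted p = 0.0654, 0.0583, 0.0519 and 0.062), and leaving out replicate 3 left it at 0.0496. Quantile normalization moved it to 0.0516. The level of its ligand gene Cx3cl1 in these samples differed by -0.58 ± 0.23 (adjusted p = 0.115).

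Siglech encodes a receptor that signals through the adaptor DAP12. The brightest probe ran from 14.61 through 15.02 to 15.42 in WT and from 14.32 through 14.48 to 14.65 in AD, and the groups overlapped only through the WT sample of replicate 2 at 14.61. It fell by 0.59 ± 0.08 on the log2 scale (adjusted p = 0.000681). The dimmer probe gave a like value with more spread, -0.64 ± 0.31 (adjusted p = 0.186), and was lower in AD on 7 of 7 arrays. Tyrobp, the gene of DAP12, rose by 0.84 ± 0.19 (adjusted p = 0.0113).

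Gpr34, a receptor for lysophosphatidylserine, and Fcrls, an Fc receptor-like scavenger receptor, did not pass the test. Gpr34 ran from 13.65 through 13.91 to 14.74 in WT and from 13.31 through 13.55 to 14.15 in AD, with overlapping groups, and differed by -0.60 ± 0.26 (95% interval -1.18 to -0.02, adjusted p = 0.146). Fcrls ran from 14.04 through 14.38 to 14.61 in WT and from 13.82 through 14.04 to 14.16 in AD and differed by -0.36 ± 0.24 (interval -0.90 to 0.17, adjusted p = 0.346). Both were nevertheless lower in AD on 7 of 7 arrays, though on the array of replicate 4 the difference of Fcrls was only -0.01. The fit shares its spread with the astrocyte samples, in which SDs of these genes were 0.71 to 1.19, against 0.12 to 0.46 in microglia. With microglia fitted alone, Gpr34 (-0.54 ± 0.12, adjusted p = 0.0181) and Fcrls (-0.35 ± 0.10, adjusted p = 0.0455) passed.

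Slc2a5 encodes GLUT5, the fructose transporter that marks microglia in the brain. It ran from 14.57 through 14.90 to 15.33 in WT and from 13.56 through 13.78 to 14.09 in AD, with separate groups. Slc2a5 fell by 1.19 ± 0.25 on the log2 scale, 2.28-fold (adjusted p = 0.00864, or 0.0655 without the array as a block).

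Transcripts of the genes for secreted proteins, Sparc and Olfml3, fell as well. The brightest probe of Sparc was blank on the array of replicate 6. In the other 6 pairs it ran from 17.24 through 17.48 to 17.61 in WT and from 16.05 through 16.29 to 16.77 in AD. These groups were separate, and the fall was 1.11 ± 0.13 on the log2 scale (adjusted p = 0.000543). The dimmer Sparc probe, measured on all 7 arrays and away from the top of the scale, fell by less, 0.53 ± 0.08 (adjusted p = 0.000931).

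Olfml3, an olfactomedin-like extracellular protein, ran from 14.13 through 14.30 to 14.81 in WT and from 13.59 through 13.76 to 14.02 in AD. No AD sample reached the lowest WT sample. Its difference was -0.58 ± 0.16 (adjusted p = 0.0287), and its dimmer probe gave -0.39 ± 0.13 (adjusted p = 0.0678) and was lower on 6 of 7 arrays. The call of Olfml3 ended when replicate 1, 3, 5, 6 or 7 was left out (adjusted p = 0.0714, 0.0603, 0.0616, 0.0856 and 0.0625), when the dye term was dropped (0.075) and after quantile normalization (0.0724).

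Microglia lay on 2 slides, and the 10 genes had negative differences within each. The effect of each slide came from 1 fit of all 22 samples, which shares its spread with the astrocyte samples. Within slide 1 (4 arrays) 5 of the 10 passed, where 2413 genes passed in either direction. The same 5 passed within slide 2 (3 arrays), where 1386 genes did. They were Tmem119 (-1.33 and -1.54), Sall1 (-0.70 and -0.85), Siglech (-0.50 and -0.71), Sparc (-0.95 and -1.50) and Selplg (-1.15 and -1.43). Without replicate 3, whose WT sample stood apart in myeloid markers, 7 of the 10 passed, where 3902 genes passed in either direction. Olfml3 was the gene lost, and the 10 differences lay between -0.36 and -1.38. A fit with no array block ended the calls of Cx3cr1 (adjusted p = 0.106), Siglech (0.111) and Olfml3 (0.237) as well as those of Sall1 and Slc2a5.

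Other markers moved in the same microglia samples, where 11.6% of all genes fell and 8.44% rose. The 12 general microglia markers, which leave out the 10 homeostatic genes, split into 2 that rose (Cd68 and Tyrobp), 2 that fell (Itgam and Csf1r, the latter also in the wider list given next) and 8 that did not pass, with a median of -0.25. The summed level of the 10 general markers measured in all samples was 18.85 to 19.16 in WT and 18.55 to 18.86 in AD. By array the median difference of the homeostatic genes lay between -0.62 and -1.09 and that of the general markers between -0.44 and 0.07, so the homeostatic median was lower than the general one on 7 of 7 arrays, with a gap of -0.44 to -0.97. Of 11 macrophage and monocyte markers, 6 fell and 0 rose (median -1.0), led by Pf4, Mrc1 and Cd163. These calls include replicate 3, whose WT sample was high in these markers. Their median difference was -1.89 on that array and ran from -0.24 to -1.48 on the other arrays. Of 8 astrocyte markers 4 fell and 1 rose, and of 7 neuron markers 4 fell. The summed level of the 7 astrocyte markers measured in all samples was 11.48 to 12.38 in WT and 10.75 to 11.73 in AD. Of 9 endothelial, 7 mural and 6 oligodendrocyte markers 1 each rose, Flt1 by 2.72 ± 0.21, Cspg4 by 2.36 ± 0.24 and Mbp by 0.71 ± 0.10, each on 7 of 7 arrays, and 0 fell. The part of these markers in the fall of the homeostatic genes was not tested.

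**Figure D2:**
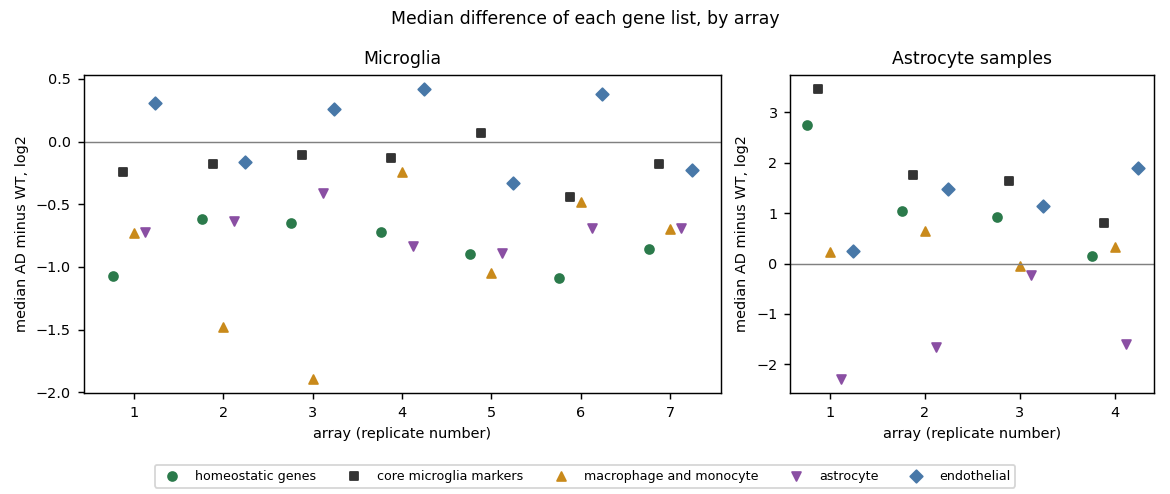
Median AD minus WT difference (vertical axis, log2) on each array (horizontal axis, replicate number) for the homeostatic genes and 4 lists of cell type markers, in microglia (left) and astrocyte samples (right). On the 7 microglia arrays the homeostatic median lies between -0.62 and -1.09, below that of the general microglia markers. On the 4 astrocyte arrays both are above 0 with the homeostatic median lower, 2.75 against 3.46 for replicate 1 and 0.15 against 0.80 for replicate 4. The homeostatic list includes Sall1 and the brightest probe of Siglech, which fell in astrocyte samples.

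A wider list of genes typical of resting microglia moved the same way. Like the 10 genes, it was chosen with earlier results of these data known. Of 22 such genes outside the 10, 19 fell and 0 rose in AD microglia (median -0.81), where 11.6% of all genes fell and 8.44% rose. The tetraspanin-family gene Upk1b fell by 1.27 ± 0.08 (adjusted p = 9.33e-06), the thioredoxin inhibitor gene Txnip by 1.18 ± 0.10, Serinc3 by 1.08 ± 0.11 and Bin1, a membrane-bending endocytosis gene, by 0.82 ± 0.09, each on 7 of 7 arrays. The 3 that did not pass were Mertk, Ctsf and Rtn4rl1.

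Of 17 upstream regulators, genes of transforming growth factor beta signalling and of microglial transcription factors, 3 fell and 0 rose (median -0.02), where 11.6% of all genes fell and 8.44% rose. They were the receptor gene Tgfbr1 (-0.54 ± 0.09, adjusted p = 0.00184), Itgav, an integrin subunit that takes part in activating the growth factor (-0.53 ± 0.09, adjusted p = 0.00213), and Mef2a (-0.34 ± 0.07, adjusted p = 0.00721). Tgfbr1 and Itgav were lower in AD on 7 of 7 arrays, whereas Mef2a was lower on 4 and higher on 3. Spi1, Irf8, Runx1, Mef2c, Cebpa and Tgfb1 did not pass.

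The known partners and relatives of the 10 genes were mixed. Of 14 partner genes, 1 rose (Tyrobp) and 4 fell. The latter were Stab1, a scavenger receptor that binds SPARC (-1.10 ± 0.13), Tpst2 and Gcnt1, enzymes that modify PSGL-1 (-0.61 ± 0.08 and -0.60 ± 0.11), and Khk, the fructokinase gene (-0.46 ± 0.08). Of 27 relatives by family, 4 rose and 6 fell. Of all genes, 8.44% rose and 11.6% fell. Of the 8 tested relatives of Slc2a5 in the hexose transporter family, 3 rose, Slc2a6 by 2.66 ± 0.16, Slc2a1 by 2.30 ± 0.17 and Slc2a3 by 1.84 ± 0.16, each on 7 of 7 arrays. Slc2a4 (0.43 ± 0.20), Slc2a8 (0.00 ± 0.07), Slc2a9 (0.04 ± 0.10), Slc2a10 (-0.31 ± 0.17) and Slc2a12 (-0.02 ± 0.10) did not pass. Among Siglec genes, Siglece and Siglecg fell and Siglecf rose, and the Sall1 relative Sall2 fell by 0.48 ± 0.12 (adjusted p = 0.0223).

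The levels of the homeostatic genes were also compared from sample to sample. Over the 14 microglia samples, pairs of the 9 genes without blanks correlated at a median Pearson r of 0.82, from 0.62 for Cx3cr1 and Gpr34 to 0.98 for Tmem119 and Slc2a5. These points share the genotype difference, the array and the labelling. Within the 7 WT samples the median r was 0.56 (-0.29 to 0.99) and within the 7 AD samples 0.38 (-0.76 to 0.89). Of 16370 genes measured in all 14 microglia samples, those outside the list most like the mean profile of the 9 were the calmodulin gene Calm2 (r = 0.99), then Pnp, 0610040J01Rik, Mfng, Dnm2, Cyth4, Bin1 and Rab3il1 (each 0.98). Over all 22 samples they were Clec4a3 (r = 1.00), then Marcks, Sting1, P2ry12, Gpr183, Alox5ap, Cyth4 and Ltc4s (each 0.99), where the profile mainly follows the cell type.

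In astrocyte samples most of the homeostatic genes were higher in AD. Of the 10, 7 rose (limma, adjusted p under 0.05), where 15.4% of 22477 genes rose and 33.4% changed in either direction, and 2 fell, Sall1 and the brightest probe of Siglech, where 18.0% of genes fell. With the 4 astrocyte arrays fitted alone, 2819 genes passed in either direction, against 7515 in the main fit. Of the 10, 2 rose in that fit, Gpr34 and Selplg. The calls of Tmem119 (adjusted p = 0.148), Cx3cr1 (0.066), Olfml3 (0.0606), Fcrls (0.0768) and Slc2a5 (0.0887) were lost. The median difference was 1.29, and that of all genes was -0.07. All levels except those of Sparc and of the bright Siglech probe stayed at 11.94 or below, and the spread between samples was wide. Higher values on every array were seen for 6 of the 10 genes, against 18.9% of all genes, and lower values on every array for 2, against 24.3%. The groups did not overlap with AD higher for 2 of 10 (Olfml3 and Fcrls), against 6.42%.

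**Figure D3:**
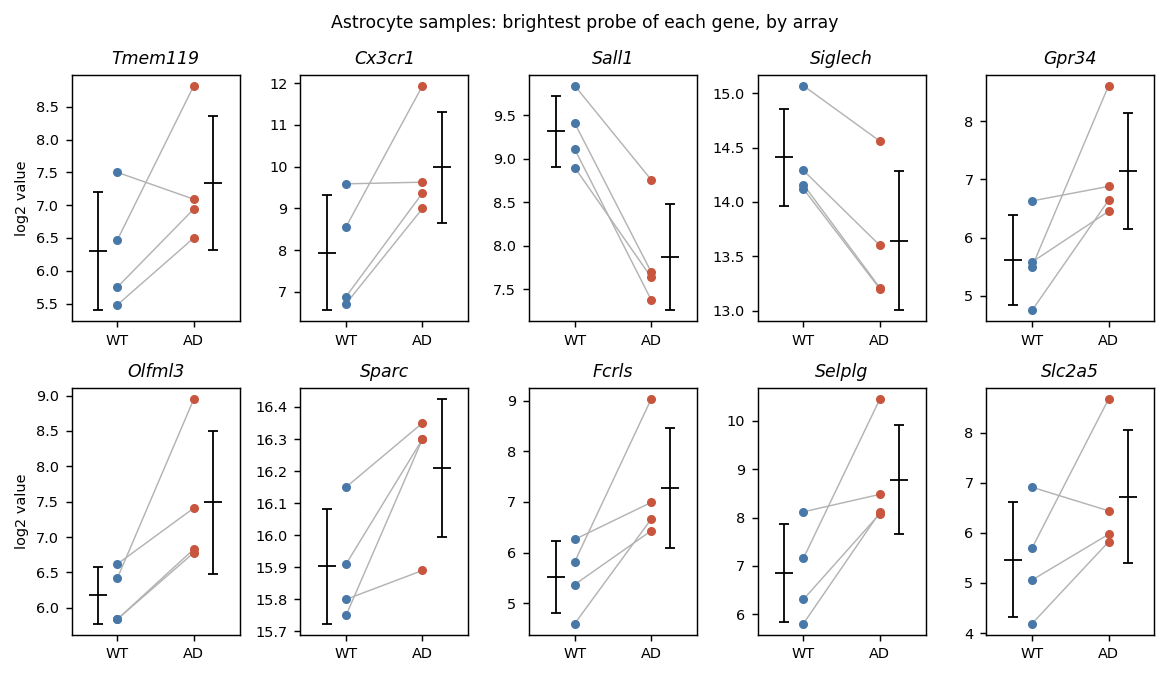
Log2 value of the brightest probe of each homeostatic gene in astrocyte samples (vertical axis, scaled per gene), WT in blue and AD in red, with lines joining the samples of 1 array and bars giving mean ± SD. The AD sample of replicate 1 is the highest for the 7 genes that rose, such as Cx3cr1 at 11.94, whereas all 4 lines run downward for Sall1 and Siglech.

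Sall1 fell in the astrocyte samples too. Its values for replicates 1 to 4 were 8.90, 9.41, 9.84 and 9.11 in WT and 7.64, 7.70, 8.76 and 7.38 in AD. No AD sample reached a WT sample, which held with AD lower for 10.9% of all genes. It fell by 1.44 ± 0.12 on the log2 scale, 2.71-fold (adjusted p = 0.000122), and no setting tried ended this call.

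Siglech depended on the probe. Its brightest probe read 14.16, 14.12, 15.07 and 14.29 in WT and 13.21, 13.20, 14.56 and 13.60 in AD for replicates 1 to 4, lower in AD within each array with overlapping groups, a difference of -0.77 ± 0.10 (adjusted p = 0.000517). The dimmer probe read 5.47, 4.26, 4.25 and 6.76 in WT and 8.85, 6.68, 5.26 and 6.62 in AD, higher on 3 of 4 arrays, a difference of 1.67 ± 0.40 (adjusted p = 0.0102). The sign for Siglech in astrocyte samples is therefore that of the probe chosen, and the mean of both probes gave 0.45 ± 0.22 (adjusted p = 0.145).

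Cx3cr1 showed the largest rise. It read 8.56, 6.72, 6.89 and 9.59 in WT and 11.94, 9.0, 9.37 and 9.63 in AD for replicates 1 to 4. The groups overlapped through the WT sample of replicate 4, on whose array the difference was only 0.04. The rise was 2.04 ± 0.43 (adjusted p = 0.00533), with 1.57 ± 0.26 for the dimmer probe. Selplg read 7.16, 5.81, 6.31 and 8.12 in WT and 10.45, 8.11, 8.08 and 8.48 in AD and rose by 1.93 ± 0.27 (adjusted p = 0.000588). Its WT sample of replicate 4 overlapped the AD group in the same way.

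Fcrls read 5.82, 5.37, 4.60 and 6.26 in WT and 9.03, 6.43, 6.66 and 6.99 in AD, and the groups were separate. It rose by 1.76 ± 0.32 (adjusted p = 0.00214). Gpr34 read 5.50, 4.75, 5.58 and 6.63 in WT and 8.61, 6.64, 6.45 and 6.88 in AD and rose by 1.53 ± 0.34 (adjusted p = 0.00672). Here the highest WT sample, that of replicate 4, lay above the lowest AD sample. Olfml3 read 6.42, 5.84, 5.84 and 6.62 in WT and 8.95, 6.83, 6.78 and 7.41 in AD, with separate groups, and rose by 1.31 ± 0.21 (adjusted p = 0.00113).

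Tmem119 and Slc2a5 rose, with AD higher on 3 of 4 arrays and lower on that of replicate 4. Tmem119 read 6.47, 5.48, 5.75 and 7.50 in WT and 8.82, 6.50, 6.94 and 7.09 in AD (1.03 ± 0.29, adjusted p = 0.0201). Slc2a5 read 5.70, 4.19, 5.06 and 6.91 in WT and 8.67, 5.82, 5.97 and 6.44 in AD (1.26 ± 0.33, adjusted p = 0.0157). The groups of both genes overlapped. Leaving out replicate 1 ended both calls (0.64 for Tmem119, adjusted p = 0.0968, and 0.78 for Slc2a5, adjusted p = 0.069) , as did leaving out replicate 3 (0.0898 and 0.0544), and for Slc2a5 leaving out replicate 2 as well (0.0521).

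Sparc read 16.15, 15.91, 15.80 and 15.75 in WT and 16.35, 16.30, 15.89 and 16.30 in AD. It was higher in AD on 4 of 4 arrays with overlapping groups, and its difference of 0.31 ± 0.16 did not pass (interval -0.05 to 0.66, adjusted p = 0.171). The dimmer probe rose by 0.47 ± 0.10 (adjusted p = 0.0052). A fit with no array block ended the calls of Tmem119 (adjusted p = 0.114), Slc2a5 (0.102) and the brightest probe of Siglech (0.0668).

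Microglia markers moved with these rises, in samples where 15.4% of all genes rose and 18.0% fell. Of the 12 general microglia markers, 11 rose and 1 fell in AD astrocyte samples (median 1.94), and Itgam, the gene of the CD11b antigen used to gate such cells away, was the 1 that fell (-0.59 ± 0.09). The summed level of the 10 markers measured in all samples was 13.44 to 14.54 in WT and 13.51 to 15.27 in AD, against 18.85 to 19.16 in WT microglia. In WT astrocyte samples this sum mainly follows Itgam, with a mean of 13.50 against 9.94 for Csf1r, the next highest. The Itgam probe hardly separated the cell types, with a mean of 13.95 in WT microglia. The sum is therefore a poor measure of the other markers there. The lowest WT astrocyte mean among the 12 was that of Cd68 at 2.85. By array the homeostatic median was 2.75, 1.04, 0.92 and 0.15 for replicates 1 to 4 and the general marker median 3.46, 1.75, 1.63 and 0.80. The homeostatic median was thus lower than the general one on each array, with gaps of -0.71, -0.71, -0.71 and -0.65. However, the homeostatic list includes Sall1 and the brightest probe of Siglech, which fell, and Sparc, which did not pass. In the general list only Itgam did not rise. These gaps are therefore not those of the 7 genes that rose. Endothelial markers (8 of 9 rose) and mural markers (5 of 7 rose) were higher as well, and 7 of 8 astrocyte markers fell while Gfap rose. The summed level of the 7 astrocyte markers measured in all samples was 18.46 to 18.58 in WT and 16.11 to 18.14 in AD. The part of these markers in the rise of the homeostatic genes, and in the fall of Sall1, was not tested.

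Of the 22 further genes typical of resting microglia, 11 rose and 5 fell in AD astrocyte samples (median 0.46). Of all genes, 15.4% rose and 18.0% fell there. Txnip, Serinc3, Bin1 and Upk1b, which had fallen in microglia, rose by 1.34 ± 0.14, 0.84 ± 0.14, 0.45 ± 0.12 and 0.73 ± 0.11. Adgrg1, Mertk, Gal3st4, Ctsf and Cst3 fell, with differences of -1.38 ± 0.16, -1.08 ± 0.13, -1.01 ± 0.15, -1.01 ± 0.16 and -0.64 ± 0.21. Cst3 only just passed (adjusted p = 0.0489). It had values on 3 arrays and was lower in AD on 2 and higher on 1. P2ry12, a purinergic receptor gene of the same programme, differed by 0.04 ± 0.25 (adjusted p = 0.926).

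The genotype effects differed between the cell types for 9 of the 10 genes, by the test of the difference itself. The astrocyte effect was higher than the microglia effect for 8 genes, where 13.6% of 21964 genes passed in that direction and 27.0% in either, and lower for 1, Sall1, where 13.4% passed. The differences ran from 1.42 ± 0.20 for Sparc to 3.30 ± 0.55 for Cx3cr1. Selplg had 3.20 ± 0.34 (adjusted p = 0.000193) and Tmem119 2.45 ± 0.36 (adjusted p = 0.00106). For Sall1 it was -0.68 ± 0.15 (adjusted p = 0.00974), a larger fall in astrocytes than in microglia, and its call was lost without the array block (adjusted p = 0.378). For the brightest probe of Siglech the difference was -0.18 ± 0.13 (interval -0.47 to 0.11, adjusted p = 0.344), and for its dimmer probe 2.31 ± 0.50 (adjusted p = 0.00811). A fall in microglia with a rise in astrocytes was called for 5 of the 10 genes (Tmem119, Cx3cr1, Olfml3, Selplg and Slc2a5) and for 2.24% of 21961 genes. Of these 5, only Selplg kept its rise with the astrocyte arrays fitted alone. The microglia calls of Cx3cr1 and Olfml3 also ended when some single arrays were left out. A fall in both cell types was called for Sall1 and the brightest probe of Siglech and for 3.84% of genes.

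**Figure D4:**
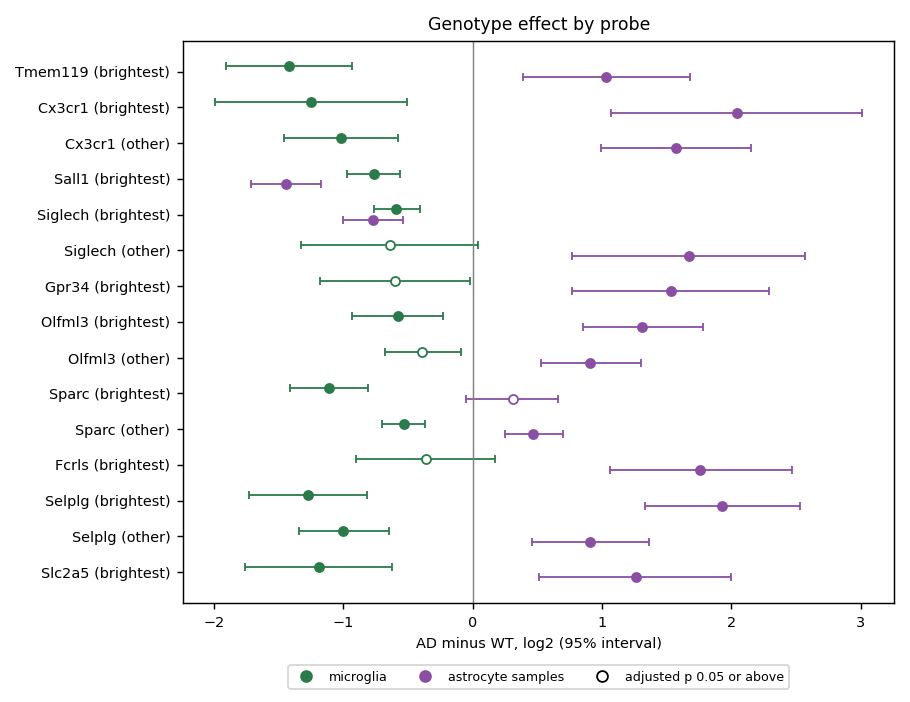
AD minus WT difference (horizontal axis, log2, with 95% interval from the limma fit) of each of the 15 probes of the 10 homeostatic genes, in microglia (green) and astrocyte samples (purple), with open circles where the adjusted p was 0.05 or above. Microglia differences lie below 0 for all 15 probes, and astrocyte differences above 0 for 13, the exceptions being Sall1 (-1.44) and the brightest probe of Siglech (-0.77).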

How the data were processed

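Dual-colour Agilent arrays measured amplified RNA of 22 samples on 11 arrays and 3 slides. The deposited table holds log2 values of single channels, made by the authors with limma per the submitters' processing notes. The sources used here give neither its version nor the background correction, the normalization or the genome build. The annotation gave 1 gene to 33026 of 43020 probes and several to 0, and the 9994 without a name were left out. Values were used as deposited. Precision is limited by the number of arrays.

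Genotype effects were fitted with limma 3.58.1 (R 4.3.3, statmod 1.5.0) in 1 model of all 22 samples, with genotype nested in cell type, array as a fixed block and dye as a covariate. AD samples were in Cy3 on 4 microglia arrays and 2 astrocyte arrays, and in Cy5 on 3 and 2. Two-sided p-values were adjusted by Benjamini-Hochberg over all genes measured on at least 2 arrays of the cell type with a threshold of 0.05. For the WT cell types, a fit of the 4 group means and dye used duplicateCorrelation to treat the array as random. Other probes of a gene were fitted in the same model and adjusted over all named probes. Errors after ± are standard errors of fitted differences. A summed marker level is the log2 of the sum of the genes' linear values in a sample, over the listed genes measured in all samples.

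Pairing by array came from the labels. Same-array samples, centred within groups, had a median correlation over 16310 genes of 0.47 on microglia arrays (0.37 to 0.63) and 0.23 on astrocyte arrays (0.00 to 0.50).

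All 10 genes and all their probes are named. From each further list the text names up to 4 genes with the smallest adjusted p in microglia among those past the threshold with 1 sign on every array, and ligands, adaptors and relatives. Genes that fell in astrocytes, the markers that changed and those that did not pass were named after their values were seen. The genes and lists were chosen with earlier results of these data known. The settings varied were the array block (left out, or random), the dye term (left out), the normalization (quantile), genes above the median gene, genes measured on every array and other probe rules. Each cell type was also fitted alone, and genotype was nested in slide in 1 fit of all 22 samples. Further settings were slide as a random block, WT samples alone and leaving out each array. Other software was Python 3.11.15 with pandas 2.3.3, numpy 2.4.6, scipy 1.17.1 and matplotlib 3.10.9.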

Additional observations from a re-analysis of the deposited data

Results flagged for a closer look

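In the 40 groups of 4 to 7 samples that were tested for a sample far from the rest, 2 such samples were found, where chance gives about 1 in 20 groups. The AD microglia sample of replicate 7 was high for Gpr34, at 14.15, and the WT sample of the same array was the highest of its group as well, at 14.74. The AD astrocyte sample of replicate 3 was low for Sparc, at 15.89.

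The genotype effect in astrocytes differed from that in microglia, by the test of the difference itself, for 9 of the 10 genes. The differences (astrocyte effect minus microglia effect, log2) were 3.30 for Cx3cr1, 3.20 for Selplg, 2.45 for Tmem119, 2.45 for Slc2a5, 2.13 for Gpr34, 2.12 for Fcrls, 1.89 for Olfml3, 1.42 for Sparc and -0.68 for Sall1. Sall1 was the only 1 of the 9 whose effect had the same sign in both cell types.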

How the results depend on the processing

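Across the alternatives, Tmem119 and Selplg kept their fall in microglia in 23 of 23 settings (adjusted p of at most 0.0375 and 0.0351), and Sall1 kept its fall in astrocytes in 21 of 21. Without the array block (no replicate block) 1177 genes passed in microglia with 3 of the 10 lower, 2447 in astrocytes with 5 higher and 1 lower, and 1483 for the difference of effects with 8 higher and 0 lower. With genotype nested in slide in 1 fit of all 22 samples, 2413 genes and 5 of the 10 passed within slide 1, and 1386 and 5 within slide 2. With astrocytes fitted alone 2819 genes passed and 2 of the 10 were higher. With the mean of all probes 1 of the 10 was lower in astrocytes, because Siglech turned to 0.45 there and to 1.07 for the difference. With slide as a random block 7256 genes differed between WT cell types.

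Leaving out 1 replicate gave 3279 to 4606 genes in microglia with 6 to 8 of the 10 lower, 5514 to 7527 in astrocytes with 5 to 7 higher and 2 lower, 4412 to 5932 for the difference with 8 higher and 1 lower, and 10948 to 12253 between WT cell types with 10 lower. The brightest probes of Cx3cr1 and Sparc lay near the top of the scale in WT microglia. Their differences in microglia were -1.25 and -1.11, against -1.02 and -0.53 for the dimmer probes. The rises in astrocyte samples are limited by 4 arrays. The cause of the changes with the settings was not tested.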

Other observations

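The evenness of the samples differed between the cell types. The SD of the brightest probes lay between 0.12 and 0.46 in the microglia groups. In the astrocyte groups it lay between 0.71 and 1.37 for Tmem119, Cx3cr1, Gpr34, Fcrls, Selplg and Slc2a5, and Sparc had the lowest, 0.18 in WT and 0.21 in AD. Over the 8 astrocyte samples the pairs of the 10 genes correlated at a median r of 0.70, from -0.89 for Sall1 and Sparc to 0.99 for Tmem119 and Slc2a5. These samples share 4 arrays and the genotype difference.

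On the 7 microglia arrays the difference of 1 gene did not always follow that of another. The array differences of the 9 genes without blanks correlated at a median r of 0.46, from -0.44 for Cx3cr1 and Selplg to 0.97 for Olfml3 and Selplg.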
